A study of Arabidopsis thaliana with 12 samples.

Results

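The class I KNOX genes of Arabidopsis thaliana are the 4 genes STM (SHOOT MERISTEMLESS, AT1G62360), KNAT1/BP (BREVIPEDICELLUS, AT4G08150), KNAT2 (AT1G70510) and KNAT6 (AT1G23380), and their H3K27me3 was measured here by ChIP-seq in 4 genotypes. They were chosen by name, as members of the family, out of 37887 annotated genes, and all 4 passed the filter on low read numbers that left 32054 genes for testing. The genotypes were the brm-1 clf-29 double mutant, the clf-29 single mutant, the brm-1 single mutant and Col, the wild type. Each genotype gave 2 ChIP libraries with an antibody to H3K27me3 and 1 input library, 12 libraries in all. Every library came from whole seedlings 14 days old grown under long days on MS medium, which the labels call 1/2 MS and the methods do not, so a mutant was set against a wild type of the same age and growth. The material was whole seedlings, so fewer cells carrying the mark and less mark in each cell cannot be told apart. brm-1 and clf-29 are T-DNA insertion alleles carried by every cell of the plant, and the labels name no mutation in SWN, the other H3K27 methyltransferase of seedlings. ChIP reads do not show whether a library carries the mutations its label names, so the genotypes rest on the labels.

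Class I KNOX genes encode homeodomain transcription factors that keep cells of the shoot apical meristem undifferentiated. STM is needed to form and maintain the meristem, KNAT1/BP shapes internodes and pedicels, and KNAT2 and KNAT6 are close paralogs, of which KNAT6 acts with STM at organ boundaries. The genes are silent in most leaf cells, where Polycomb Repressive Complex 2 (PRC2), whose product is the mark H3K27me3, takes part in their repression. The MYB protein AS1 and the LOB-domain protein AS2 act in the repression of members other than STM. CLF is a catalytic subunit of PRC2 and BRM is the ATPase of a SWI/SNF chromatin remodelling complex.

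The genes differ in size and structure, which bears on where the mark can lie. In the TAIR10.1 annotation of RefSeq, STM is at chr1:23058582-23062063 on the minus strand, with 4 exons over 3482 bp. KNAT1/BP is at chr4:5147699-5151159 on the minus strand, with 5 exons over 3461 bp. KNAT2 is at chr1:26576486-26582879 on the plus strand, with 5 exons over 6394 bp, of which intron 3 takes 4162 bp. KNAT6 is at chr1:8297241-8302651 on the minus strand, with 5 exons over 5411 bp, of which intron 3 takes 3676 bp. KNAT2 and KNAT6 thus share a long intron 3 that the other members lack.

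All 4 promoters lay inside the H3K27me3 regions of every genotype, so the 250 bases before each annotated start are shown, read 5′ to 3′ on the gene's strand from the TAIR10.1 genome of RefSeq. Capitals mark GA repeats (GAGAGA on either strand, overlapping matches counted), letters bound by BASIC PENTACYSTEINE proteins. STM is from chr1:23062064-23062313, KNAT1/BP from chr4:5151160-5151409, KNAT2 from chr1:26576236-26576485 and KNAT6 from chr1:8302652-8302901.
STM: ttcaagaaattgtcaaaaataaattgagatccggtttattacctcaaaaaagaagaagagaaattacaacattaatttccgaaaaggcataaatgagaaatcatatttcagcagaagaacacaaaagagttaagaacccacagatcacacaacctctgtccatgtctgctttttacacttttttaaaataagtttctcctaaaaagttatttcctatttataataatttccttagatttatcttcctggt
KNAT1/BP: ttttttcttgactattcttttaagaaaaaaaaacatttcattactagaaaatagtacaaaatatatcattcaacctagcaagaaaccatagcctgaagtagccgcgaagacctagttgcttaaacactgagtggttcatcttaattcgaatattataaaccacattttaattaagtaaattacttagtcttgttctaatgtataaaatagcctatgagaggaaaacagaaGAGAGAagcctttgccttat
KNAT2: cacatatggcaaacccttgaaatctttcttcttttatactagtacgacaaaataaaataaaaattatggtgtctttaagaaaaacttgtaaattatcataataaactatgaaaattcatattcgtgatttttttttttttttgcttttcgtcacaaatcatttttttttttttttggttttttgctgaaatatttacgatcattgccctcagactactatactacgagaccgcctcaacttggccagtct
KNAT6: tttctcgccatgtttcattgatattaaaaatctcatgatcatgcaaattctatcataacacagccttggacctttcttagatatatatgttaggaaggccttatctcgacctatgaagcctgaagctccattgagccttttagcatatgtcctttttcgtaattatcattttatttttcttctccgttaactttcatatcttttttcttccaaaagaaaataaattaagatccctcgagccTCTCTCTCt
The KNAT6 promoter held 2 overlapping GA repeats next to the start, KNAT1/BP held 1, and the windows of STM and KNAT2 held 0. A GA repeat stood in 20.6% of 27431 promoters of the same length and in 20.7% of the 6963 whose gene lay in a Col region. The telobox (AAACCCTA on either strand), letters bound by telomere-repeat-binding factors, stood in 0 of the 4 windows, against 4.49% of all promoters. These matches are letters only, and GC content was 29.2% for STM, 30% for KNAT1/BP, 28.4% for KNAT2 and 34% for KNAT6.

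The ChIP libraries held 3901085 to 7277025 mapped reads, of which 2112103 to 3654258 remained after keeping 1 read per position and strand, and a KNOX gene then had 368 to 1065 reads in a ChIP library. The Col libraries stood apart: the median gene outside all H3K27me3 regions had 1.29 and 1.12 RPM per kb (kept reads on the gene, scaled to a common library total as RPM and divided by its length) in brm-1 clf-29, 1.45 and 1.29 in clf-29, and 1.40 and 0.880 in brm-1, against 2.99 and 3.07 in Col. Any comparison of a mutant with Col on RPM therefore carries this difference of background. Changes were accordingly recomputed with libraries scaled by TMM or by median-of-ratios factors over all tested genes, by the genes outside all regions, by the genes in Col regions, or as a ratio to input. They are also given relative to the median of 10335 marked genes, those in an H3K27me3 region of any genotype. Ratios of windows within a library need no scaling between libraries.

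In every genotype STM carried the most H3K27me3 per kilobase of the 4 genes. STM had 91.4 and 94.2 RPM per kb in brm-1 clf-29, 95.6 and 107.7 in clf-29, 73.4 and 72.2 in brm-1, and 60.1 and 59.7 in Col. The STM values of the 4 genotypes did not overlap, and the genotypes that carry clf-29 were the highest. KNAT1/BP, the internode and pedicel gene, had 45.9 and 45.6 RPM per kb in brm-1 clf-29, 59.9 and 61.4 in clf-29, 50.6 and 57.2 in brm-1, and 46.5 and 45.6 in Col. Its brm-1 clf-29 and Col values could not be separated, and its clf-29 values were the highest. KNAT2 had 30.2 and 29.2 RPM per kb in brm-1 clf-29, 30.3 and 27.2 in clf-29, 46.3 and 43.2 in brm-1, and 37.2 and 38.3 in Col. For KNAT2 the order was turned round, with both genotypes that carry clf-29 below Col and brm-1 above it. KNAT6 had 41.0 and 40.3 RPM per kb in brm-1 clf-29, 54.5 and 55.6 in clf-29, 44.7 and 44.8 in brm-1, and 40.0 and 40.4 in Col. KNAT6 thus stood with KNAT1/BP, high in clf-29 and level with Col in brm-1 clf-29. The input libraries had 6.75 to 10.3 RPM per kb over the same 4 genes.

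**Figure D1:**
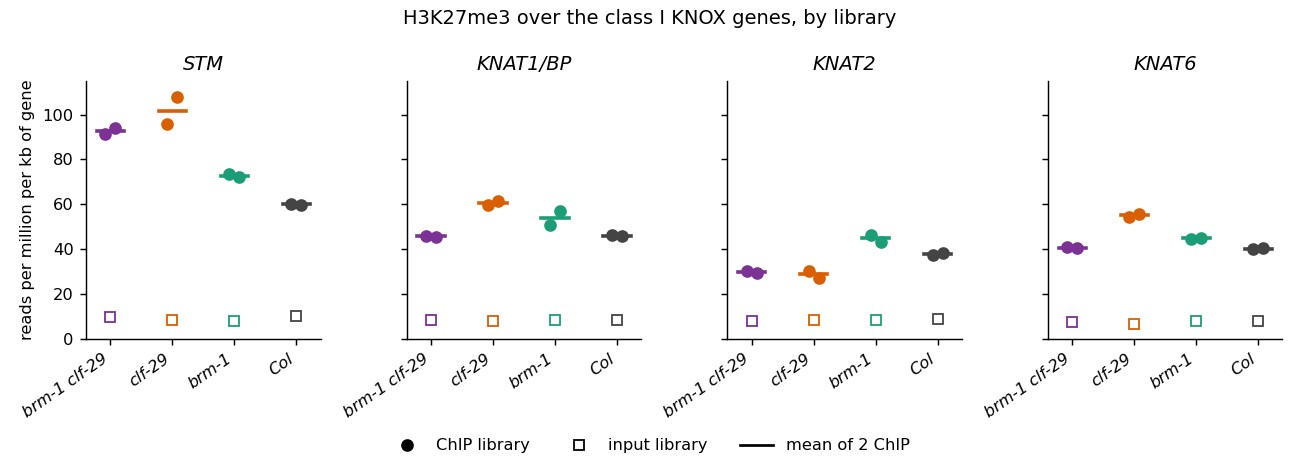
H3K27me3 level of STM, KNAT1/BP, KNAT2 and KNAT6 in RPM per kb, 1 panel a gene, with the genotypes on the horizontal axis as brm-1 clf-29, clf-29, brm-1 and Col, filled points for the 2 ChIP libraries and open squares for the input. STM is highest in the genotypes that carry clf-29, KNAT2 is lowest in them, and KNAT1/BP and KNAT6 are highest in clf-29 alone.

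Within a genotype the spacing of the genes also differed. It ran STM, KNAT1/BP, KNAT6 and KNAT2, without overlap between neighbours, with means of 92.8, 45.7, 40.6 and 29.7 RPM per kb in brm-1 clf-29, 101.7, 60.6, 55.1 and 28.8 in clf-29, and 59.9, 46.1, 40.2 and 37.8 in Col. In brm-1, where KNAT2 and KNAT6 overlapped, the means were 72.8 for STM, 53.9 for KNAT1/BP and 44.8 RPM per kb for each of the paralogs. KNAT2 thus lay far below KNAT6 in the genotypes that carry clf-29 and close to it in the others. The marked genes had a median level of 30.8 RPM per kb in brm-1 clf-29, 31.8 in clf-29, 29.6 in brm-1 and 25.7 in Col, counted over the genes in that genotype's own regions. Against those genes STM stood at percentile 91.7 in brm-1 clf-29, 92.0 in clf-29, 96.5 in brm-1 and 96.9 in Col. KNAT2 stood at percentile 48.3 in brm-1 clf-29, 45.8 in clf-29, 73.0 in brm-1 and 74.3 in Col. KNAT2 was therefore near the middle of the marked genes in the genotypes that carry clf-29 and well above it in the others, while STM stayed near the top. KNAT1/BP stood at percentile 66.1 in brm-1 clf-29, 75.1 in clf-29, 83.2 in brm-1 and 85.9 in Col, and KNAT6 at 61.4, 71.5, 72.9 and 78.1 in the same genotypes.

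Loss of CLF alone was followed by a split among the 4 genes: STM, KNAT1/BP and KNAT6 had more H3K27me3 than Col and KNAT2 had less. On log2(RPM + 1) in limma, STM was higher in clf-29 than in Col by 0.76 ± 0.07 (SE; adjusted p = 9.4e-09). It was higher and passed under every scaling tried, by 0.26 with scaling on the genes in Col regions and by up to 1.76 with scaling on those outside all regions. KNAT6 was higher by 0.45 ± 0.07 (limma adjusted p = 1.8e-05) and KNAT1/BP by 0.39 ± 0.08 (limma adjusted p = 7.0e-04), but both turned to slightly lower values, -0.04 and -0.10, where libraries were scaled on the genes in Col regions. KNAT2 was lower, at -0.39 ± 0.08 (limma adjusted p = 3.5e-04), but was at -0.08 without passing under TMM and turned to 0.38 with median-of-ratios factors and to 0.61 where genes outside all regions set the scale. By adjusted p under 0.05 3 of 4 were higher and 1 lower, against 14.1% of 32054 genes higher and 41.1% lower. With a 2-fold change asked for as well 0 of 4 passed, against 4.64% of genes higher and 33.5% lower. limma-voom called 0 of 4 by that rule too, and 4 of 4 had an unadjusted p under 0.05 in limma. By adjusted p 43.2% of the 10335 marked genes were higher and 21.1% lower, and their median change was 0.26, so STM lay 0.49 above that median and KNAT2 at -0.65 relative to it.

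In brm-1 clf-29 STM was higher than in Col by 0.63 ± 0.07 on the log2 scale (limma adjusted p = 1.9e-07). It was higher and passed under every scaling tried, by 0.17 with Col-region scaling and by up to 1.74 with outside-region scaling. KNAT2 was lower, at -0.35 ± 0.08 (limma adjusted p = 9.6e-04), but turned to 0.05, 0.51 and 0.76 under TMM, median-of-ratios and outside-region scaling and did not pass as a ratio to input. KNAT1/BP and KNAT6 were at -0.01 (95% interval -0.19 to 0.16) and 0.02 (95% interval -0.13 to 0.16), with limma adjusted p = 0.91 and 0.84, values that were -0.47 and -0.44 with Col-region scaling and 1.09 and 1.12 with outside-region scaling. By adjusted p 1 gene was thus higher and 1 lower, against 15.0% of all tested genes higher and 47.6% lower. A 2-fold change was passed by 0 of 4, against 4.92% of all genes higher and 40.3% lower. Those 0 calls were the same in limma-voom, and 2 of 4 genes had an unadjusted p under 0.05 in limma. Among the marked genes 44.9% were higher and 20.2% lower by adjusted p, with a median of 0.30, so STM lay 0.33 above and KNAT1/BP, KNAT2 and KNAT6 at -0.31, -0.64 and -0.28 relative to that median. This comparison, the previous one and the next share the Col libraries.

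In brm-1 alone the 4 genes changed by about as much as the median marked gene, on the RPM scale and under each other scaling of libraries, except that STM was at 0.62 as a ratio to input, where that median was 0.17. The log2 change in brm-1 against Col was 0.28 for STM, 0.22 for KNAT1/BP, 0.24 for KNAT2 and 0.16 for KNAT6, with limma adjusted p of 0.0045, 0.034, 0.015 and 0.069. The first 3 passed adjusted p, against 9.59% of all tested genes called higher and 41.7% lower, and 29.4% and 3.02% of marked genes. The marked genes had a median of 0.24. The size depended on the scaling: with the genes in Col regions the 4 changes were 0.02, -0.04, -0.02 and -0.11, and with the genes outside all regions they were 1.41, 1.35, 1.37 and 1.28. A 2-fold change was passed by 0 of 4 genes in limma and in limma-voom, against 0.343% of all genes higher and 38.5% lower, but by 4 of 4 under median-of-ratios or outside-region scaling, and 4 of 4 had an unadjusted p under 0.05. The adjusted p-values of KNAT1/BP and KNAT2 went above 0.05, up to 0.32, when either Col library or a brm-1 library was left out (replicate 2 for KNAT1/BP and replicate 1 for KNAT2).

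Adding clf-29 to brm-1 again set STM and KNAT2 in opposite directions, in a comparison that has no Col library in it. Relative to brm-1, brm-1 clf-29 had more mark at STM, by 0.35 ± 0.07 (limma adjusted p = 7.0e-04), and less at KNAT2, at -0.59 ± 0.08 (limma adjusted p = 4.3e-06), signs that all scalings kept. STM no longer passed under TMM, median-of-ratios, outside-region, Col-region or input scaling, where it was between 0.09 and 0.33. KNAT1/BP was at -0.23 (limma adjusted p = 0.057) and KNAT6 at -0.14 (limma adjusted p = 0.21), the sign of KNAT6 turning to 0.0013 as a ratio to input. By adjusted p 10.1% of all genes were higher and 8.84% lower, and 29.6% and 21.2% of marked genes. The 2-fold rule called 0 of 4 in limma and limma-voom, against 1.39% of all genes higher and 5.18% lower, and 3 of 4 had an unadjusted p under 0.05.

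Adding brm-1 to clf-29 was followed by less H3K27me3 at KNAT1/BP and KNAT6, in a comparison where few genes passed in either direction on the RPM scale. KNAT6 was lower in brm-1 clf-29 than in clf-29, at -0.44 ± 0.07 (limma adjusted p = 0.0014), and KNAT1/BP at -0.41 ± 0.08 (limma adjusted p = 0.018), with the sign kept under all scalings. By adjusted p alone only 0.231% of all tested genes and 0.677% of the marked genes were lower in this comparison, and 0.571% and 1.61% were higher. Neither gene passed under TMM, median-of-ratios or outside-region scaling, and KNAT1/BP did not pass without any 1 of the 4 libraries compared (adjusted p 0.051 to 0.19), nor KNAT6 without brm-1 clf-29 replicate 2 (adjusted p 0.060). STM was at -0.13 (95% interval -0.28 to 0.02) and KNAT2 at 0.04 (95% interval -0.12 to 0.21), with limma adjusted p of 0.56 and 0.91. The 2-fold rule called 0 of 4 in limma and limma-voom, against 0.290% of all genes higher and 0.0624% lower, and 2 of 4 had an unadjusted p under 0.05 in limma.

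On the RPM scale the effect of brm-1 was accordingly lower in the clf-29 background than in the Col background for 3 of the 4 genes. The difference between the log2 effects, tested as an interaction in limma, was -0.63 ± 0.12 for KNAT1/BP, -0.59 ± 0.10 for KNAT6 and -0.41 ± 0.10 for STM, with adjusted p of 0.012, 0.0080 and 0.026, and was negative for these 3 genes under every scaling. For KNAT2 it was -0.20 (adjusted p = 0.20), and 0.10 with Col-region scaling, but -0.68, -1.03 and -1.22 under TMM, median-of-ratios and outside-region scaling, where all 4 genes passed. With Col-region scaling 2 passed. By the same rule 2.59% of all genes and 8.02% of marked genes were lower and 7.63% and 0.464% higher, with a median of -0.22 over marked genes. Without brm-1 replicate 2 or brm-1 clf-29 replicate 1, 0 of the 4 genes passed, and without Col replicate 2 or brm-1 clf-29 replicate 2 only 1 did.

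**Figure D2:**
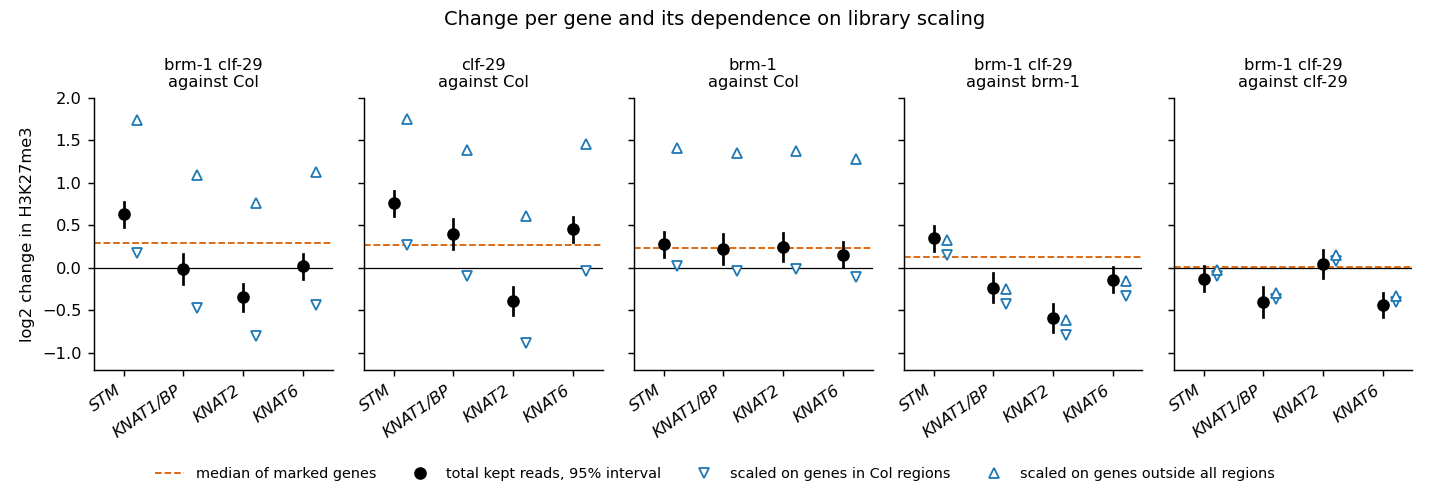
Log2 change of H3K27me3 at STM, KNAT1/BP, KNAT2 and KNAT6 in each comparison of genotypes, with points and 95% intervals from limma, a dashed line at the median of the marked genes, and open triangles for scaling on the genes in Col regions or outside all regions. STM is the highest and KNAT2 the lowest of the 4 genes in clf-29 against Col and brm-1 clf-29 against Col under each of these scalings.

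Differences between pairs of the 4 genes inside a library do not depend on the scaling of libraries. The difference STM minus KNAT2 in log2(RPM + 1) over whole genes was 0.72 to 1.10 in the 4 libraries that carry clf-29 and -0.24 to -0.14 in the 4 libraries with CLF, a shift of 1.04 with no overlap. The difference KNAT2 minus KNAT6, between the close paralogs, was -0.79 to -0.20 with clf-29 and 0.14 to 0.29 with CLF, a shift of -0.65. KNAT1/BP minus KNAT2 shifted by 0.57, STM minus KNAT1/BP by 0.47 and STM minus KNAT6 by 0.40, each without overlap. For these 5 of the 6 pairs the two-sided exact permutation p was 0.0286, the smallest that 4 libraries against 4 can give, and 0.0343 after Benjamini-Hochberg adjustment over the 6 pairs. The permutation ignores BRM genotype, so it treats brm-1 clf-29 and clf-29 libraries as alike, and brm-1 and Col libraries as alike. Those libraries differed at some pairs, as KNAT1/BP minus KNAT2 was 0.09 and 0.29 in clf-29 but -0.28 and -0.24 in brm-1 clf-29. The comparison was also chosen after seeing the data. The pairs also share genes and are not independent. KNAT1/BP minus KNAT6 was -0.51 to -0.46 with clf-29 and -0.47 to -0.29 with CLF (exact permutation p = 0.0857). STM thus stood higher against each of the other 3 genes, and KNAT2 lower against each of them, in the libraries that carry clf-29.

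**Figure D3:**
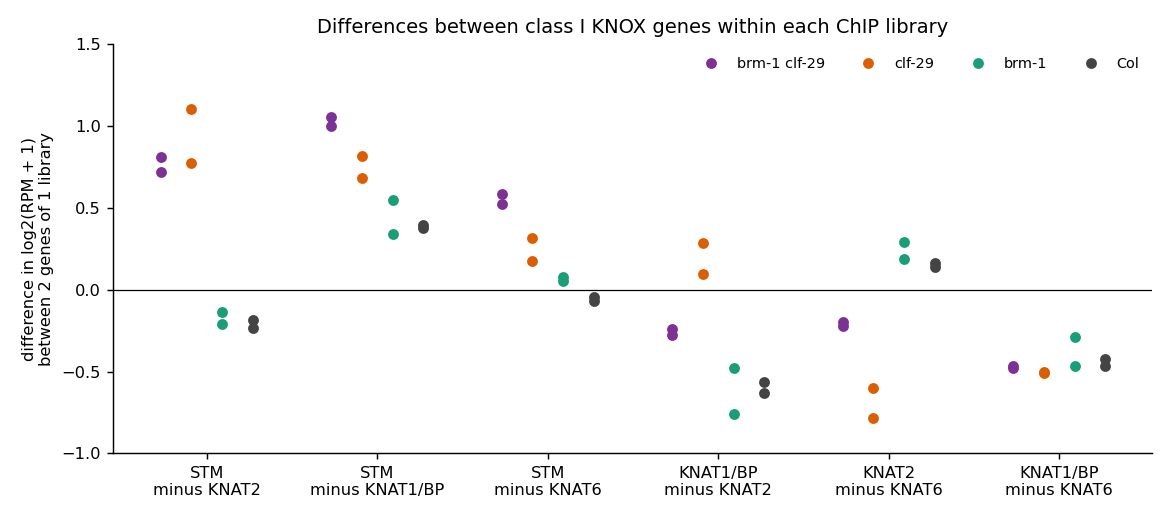
Difference in log2(RPM + 1) between members of each pair of KNOX genes within a ChIP library, over whole genes and not per length, with 1 point a library in the order brm-1 clf-29, clf-29, brm-1 and Col. STM minus KNAT2 lies between 0.72 and 1.10 in the 4 libraries that carry clf-29 and between -0.24 and -0.14 in the other 4.

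The place of the mark along the genes also changed with clf-29. At KNAT2 its start and its end changed in opposite directions on the RPM scale. Other scalings were not run for the levels of windows, exons and introns given here and below. The first 1 kb of KNAT2 had 100.7 and 90.7 RPM per kb in brm-1 clf-29, 107.4 and 92.3 in clf-29, 82.3 and 83.8 in brm-1, and 66.5 and 66.9 in Col. Its last 1 kb had 15.4 and 14.0 in brm-1 clf-29, 16.6 and 14.7 in clf-29, 37.8 and 32.7 in brm-1, and 30.6 and 28.5 in Col. On the RPM scale the KNAT2 start was higher and its end lower in both genotypes carrying clf-29 than in either genotype with CLF. The whole-gene change of KNAT2 in clf-29 against Col ran from -0.89 with Col-region scaling to 0.61 with outside-region scaling. The direction at each end by itself is therefore not settled by these values. Over its long intron 3 KNAT2 had 17.1 and 18.5 RPM per kb in brm-1 clf-29, 16.0 and 15.5 in clf-29, 40.4 and 37.0 in brm-1, and 31.6 and 33.9 in Col. Over its exons the mutants overlapped, with 51.3 and 43.3 in brm-1 clf-29, 53.5 and 45.1 in clf-29, 52.2 and 52.2 in brm-1, and 43.0 and 42.9 in Col. On the RPM scale the lower KNAT2 total in clf-29 came with lower values in intron 3 while its exons were above their Col values. That exon difference was 1.15-fold, and without other scalings its direction is not settled. Intron 3 of KNAT6, nearly as long, did not share this, with 38.0 and 39.3 RPM per kb in brm-1 clf-29, 49.5 and 53.5 in clf-29, 44.3 and 45.6 in brm-1, and 38.6 and 39.6 in Col.

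**Figure D4:**
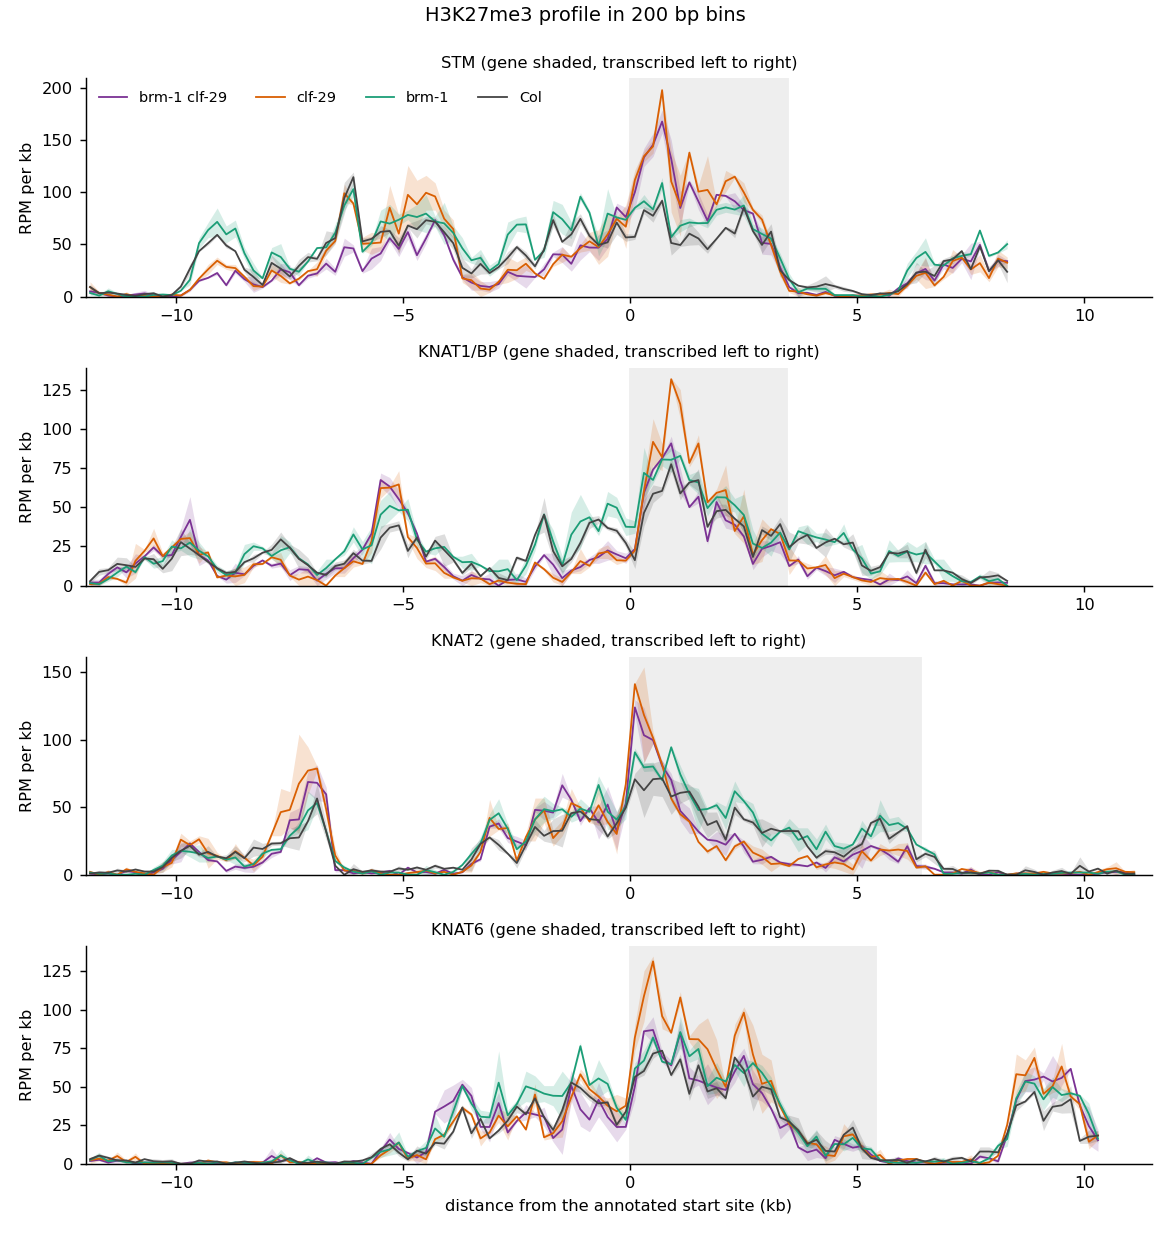
H3K27me3 in RPM per kb along STM, KNAT1/BP, KNAT2 and KNAT6 in bins of 200 bp, by distance from the start of the gene in the direction of transcription, with lines for the mean of the 2 ChIP libraries of each genotype, bands for their range and the gene body shaded. In brm-1 clf-29 and clf-29 the lines are high over the first 1 kb of KNAT2 and low over its intron 3, where the brm-1 and Col lines stay at 29.4 and 30.4 RPM per kb between 3 and 4 kb.

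The ratio of the first 1 kb to the last 1 kb of the gene, taken within a library, gives this change in a number that needs no scaling. For KNAT2 it was 6.53 and 6.45 in brm-1 clf-29, 6.49 and 6.29 in clf-29, 2.18 and 2.56 in brm-1, and 2.17 and 2.35 in Col. The 4 libraries that carry clf-29 lay together and far above the other 4. In limma over 15671 genes of at least 2 kb the ratio of KNAT2 was 2.74-fold higher in clf-29 than in Col (log2 1.45 ± 0.20, adjusted p = 1.9e-08), 2.77-fold higher in brm-1 clf-29 than in Col (adjusted p = 1.4e-08) and 2.64-fold higher in the double mutant than in brm-1 (adjusted p = 1.2e-07). Subtracting each library's background level left log2 changes of 1.52 in clf-29 and 1.54 in brm-1 clf-29 relative to Col.

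STM also had more mark at its start. The first 1 kb of STM had 134.8 and 136.3 RPM per kb in brm-1 clf-29, 135.5 and 143.5 in clf-29, 84.8 and 85.3 in brm-1, and 69.2 and 74.8 in Col. Its last 1 kb had 49.9 and 53.6 in brm-1 clf-29, 58.1 and 55.9 in clf-29, 56.2 and 53.7 in brm-1, and 52.5 and 46.7 in Col. From 1 to 2 kb after the start STM had means of 91.0 RPM per kb in brm-1 clf-29, 103.1 in clf-29, 72.5 in brm-1 and 53.2 in Col, and from 2 to 3 kb 80.3, 96.3, 76.1 and 64.7 in the same genotypes. The higher STM values thus covered most of the gene, and its last 1 kb differed little between genotypes. The ratio of the first to the last 1 kb of STM was 2.70 and 2.54 in brm-1 clf-29, 2.33 and 2.57 in clf-29, 1.51 and 1.59 in brm-1, and 1.32 and 1.60 in Col. In limma its log2 change was 0.75 ± 0.15 in clf-29 against Col (adjusted p = 1.2e-04), 0.84 in brm-1 clf-29 against Col (adjusted p = 1.1e-05) and 0.75 in the double mutant against brm-1 (adjusted p = 2.0e-04).

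For KNAT1/BP the first-to-last ratio was 3.45 and 2.40 in brm-1 clf-29, 3.06 and 2.48 in clf-29, 2.20 and 2.39 in brm-1, and 1.81 and 1.53 in Col. It was higher in clf-29 than in Col by 0.71 (limma adjusted p = 0.017) and in brm-1 clf-29 than in Col by 0.77 (limma adjusted p = 0.0070), calls lost without Col replicate 2 and without clf-29 replicate 1 or brm-1 clf-29 replicate 1 in its own comparison, where the changes were 0.52 to 0.65. KNAT6 had the widest spread of this ratio, with 6.71 and 5.91 in brm-1 clf-29, 11.2 and 6.79 in clf-29, 6.40 and 4.83 in brm-1, and 4.02 and 6.32 in Col. Its change in clf-29 against Col of 0.77 (limma adjusted p = 0.041) rested on single libraries, with 0.43 without clf-29 replicate 1 and 0.47 without Col replicate 1, and did not pass without brm-1 clf-29 replicate 1 (adjusted p = 0.051), and in brm-1 clf-29 against Col it was 0.31 (limma adjusted p = 0.56). The last 1 kb of KNAT6 held only 25 to 57 reads in a ChIP library. In each mutant it lay outside the H3K27me3 region found in both replicates. Less background, KNAT6 changed by 0.62 in clf-29 against Col, and the clf-29 and Col values overlapped. In all, 4 of 4 KNOX genes had a higher first-to-last ratio in clf-29 than in Col by adjusted p, and only 2 of 4 without clf-29 replicate 1. The background was 5.14% of all fitted genes higher and 1.45% lower, and 20.1% and 6.23% of the 3292 marked ones. The double mutant had 3 of 4 genes higher than Col, against 5.77% of all genes higher and 1.44% lower, and 22.6% and 6.04% of marked ones. It had 2 of 4 higher than brm-1, against 2.23% of all genes higher and 0.938% lower, and 9.81% and 4.25% of marked ones. In brm-1 against Col 0 of 4 passed in limma, against 0.415% of all genes and 1.85% of marked ones higher, and 1 of 4 had an unadjusted p under 0.05 (KNAT1/BP, 0.029). Between brm-1 clf-29 and clf-29 0 of 4 passed as well, against 0.0574% of all genes higher and 0.0319% lower, with 0 of 4 at an unadjusted p under 0.05. limma-voom was not run on ratios, which are not read numbers.

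The flank upstream of the genes gave the clearest change at KNAT1/BP. The 1 kb upstream of KNAT1/BP had 17.0 and 20.8 RPM per kb in brm-1 clf-29, 15.4 and 19.4 in clf-29, 38.4 and 48.8 in brm-1, and 36.1 and 36.4 in Col. Its first 1 kb had 68.6 and 62.9 in brm-1 clf-29, 74.3 and 81.0 in clf-29, 60.6 and 74.4 in brm-1, and 55.0 and 48.7 in Col. The upstream flank was lower in every library that carries clf-29 than in every library with CLF, while the start of the gene was not. The ratio of the first 1 kb to the upstream 1 kb was 4.02 and 3.03 in brm-1 clf-29, 4.82 and 4.17 in clf-29, 1.58 and 1.52 in brm-1, and 1.52 and 1.34 in Col. In limma over 15145 genes this ratio of KNAT1/BP was 3.03-fold higher in clf-29 than in Col (log2 1.60 ± 0.24, adjusted p = 5.7e-06) and 2.38-fold higher in brm-1 clf-29 than in Col (adjusted p = 4.4e-04), and less background the log2 changes were 1.71 and 1.32. The 1 kb downstream of KNAT1/BP changed alike, with means of 10.5 RPM per kb in brm-1 clf-29, 12.4 in clf-29, 30.6 in brm-1 and 28.5 in Col. The mark at KNAT1/BP was thus narrower around the gene in the genotypes that carry clf-29.

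For STM the first-to-upstream ratio was 2.26 and 2.11 in brm-1 clf-29, 2.91 and 1.94 in clf-29, 1.31 and 1.09 in brm-1, and 1.11 and 1.42 in Col. It was higher in clf-29 by 0.91 (limma adjusted p = 6.9e-04) and in brm-1 clf-29 by 0.79 (limma adjusted p = 0.0050), both against Col, and neither call held without Col replicate 1 or without replicate 1 of the mutant, where the changes were 0.62 to 0.74. KNAT2 and KNAT6 changed by 0.39 and 0.51 in clf-29 against Col, with limma adjusted p of 0.35 and 0.21. Thus 2 of 4 genes passed upward in clf-29 against Col, where 4.36% of all genes and 18.0% of the 3268 marked ones did, and 2 of 4 in brm-1 clf-29 against Col, where 2.63% and 10.7% did. Downward, 2.66% and 3.00% of all genes passed in these comparisons. Between brm-1 clf-29 and brm-1, STM at 0.86 and KNAT1/BP at 1.13 passed (limma adjusted p = 0.0040 and 0.0034), against 2.17% of all genes and 7.77% of marked ones higher, and neither passed without brm-1 replicate 2 or brm-1 clf-29 replicate 1. In brm-1 against Col 0 of 4 passed in limma, against 0.0132% of all genes higher and 0.165% lower, with 0 of 4 at an unadjusted p under 0.05.

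**Figure D5:**
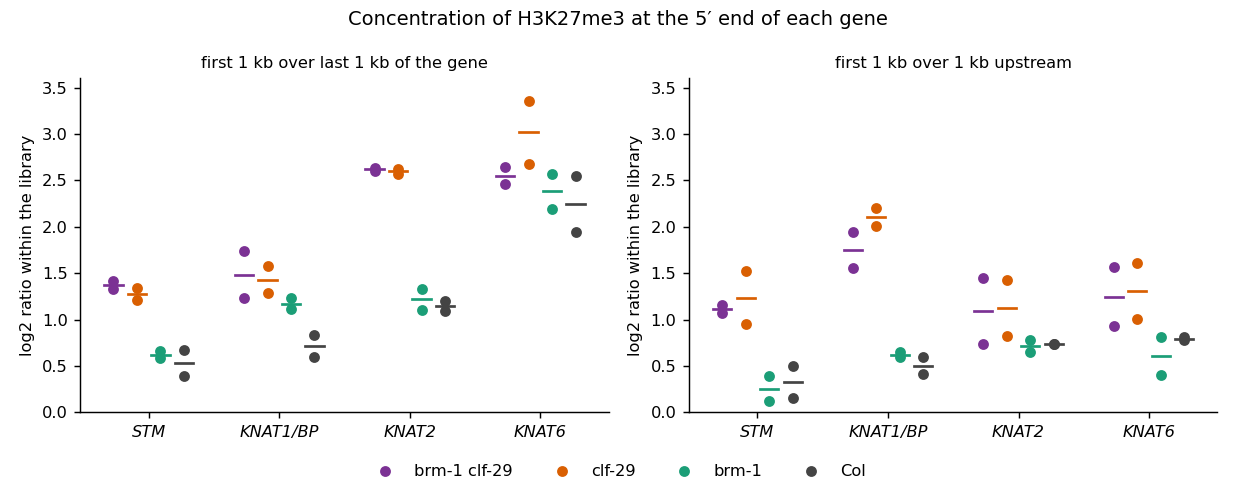
Log2 ratio of the first 1 kb to the last 1 kb and of the first 1 kb to the 1 kb upstream of STM, KNAT1/BP, KNAT2 and KNAT6, with 1 point a ChIP library and the genotypes in the order brm-1 clf-29, clf-29, brm-1 and Col. The 4 libraries that carry clf-29 are well apart from the other 4 for the first-to-last ratio of STM and KNAT2 and for the first-to-upstream ratio of STM and KNAT1/BP.

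The regions called over the genes were runs of enriched 200 bp windows present in both replicates. In the genotypes that carry clf-29 they were shorter at KNAT1/BP and covered less of KNAT2. At STM the difference depended on the gap allowed between windows, and at KNAT6 it was small. All 4 genes lay in a region in all 4 genotypes. The KNAT1/BP region spanned 4600 bp in brm-1 clf-29, 5200 bp in clf-29, 17600 bp in brm-1 and 9000 bp in Col, the brm-1 region reaching 10841 bp upstream of the gene. With a gap of 200 bp in place of 600 bp it was 4600 bp in brm-1 clf-29, 4800 bp in clf-29, and 7400 bp in brm-1 and in Col alike. Regions covered 70.6% of KNAT2 in brm-1 clf-29, 48.7% in clf-29, 100% in brm-1 and 100% in Col, though 95.6% in clf-29 replicate 1 by itself. The STM region spanned 6200 bp in brm-1 clf-29, 13000 bp in clf-29, 13200 bp in brm-1 and 13600 bp in Col. The short STM region of brm-1 clf-29 was that of replicate 1, replicate 2 having 13000 bp, and with the smaller gap the regions were 5600 bp in brm-1 clf-29, 6200 bp in clf-29, 13200 bp in brm-1 and 11600 bp in Col. KNAT6 regions spanned 8000 bp in brm-1 clf-29, 8400 bp in clf-29, 8600 bp in brm-1 and 9400 bp in Col. With the smaller gap they spanned 8000, 8400, 8600 and 8200 bp in the same genotypes. Within the gene and the 1 kb before it, STM peaked in the 200 bp bin centred 700 bp after the start in 7 of 8 ChIP libraries, and KNAT2 peaked at 100 to 300 bp with clf-29 and at 300 to 900 bp with CLF.

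The STM domain reached far upstream, over an annotated long noncoding RNA, AT1G08517, that begins 5983 bp before the gene. AT1G08517 had 30.0 and 39.3 RPM per kb in brm-1 clf-29, 69.3 and 72.9 in clf-29, 73.2 and 65.7 in brm-1, and 68.1 and 80.5 in Col, counted over a window widened to 1 kb. It was lower in brm-1 clf-29 than in clf-29, at -1.03 ± 0.14 (limma adjusted p = 2.8e-04), than in brm-1, at -0.99 (limma adjusted p = 1.4e-05), and than in Col, at -1.09 (limma adjusted p = 2.0e-06), and other scalings were not run for it. This stretch upstream of STM was thus low in the double mutant alone, where STM itself was high. Farther out, from 9 to 10 kb upstream, the mean was 12.6 RPM per kb in brm-1 clf-29 and 17.0 in clf-29, against 41.6 in brm-1 and 38.0 in Col. Upstream of KNAT1/BP lies AT4G05365, a noncoding RNA, with 49.1 and 46.6 RPM per kb in brm-1 clf-29, 40.8 and 49.2 in clf-29, 31.2 and 45.1 in brm-1, and 22.7 and 30.1 in Col. It was higher in clf-29 than in Col by 0.75 (limma adjusted p = 0.0022), opposite to the 1 kb flank of KNAT1/BP that lies between them. Upstream of KNAT6 the long noncoding RNA AT1G05797 had 25.6 and 37.7 RPM per kb in brm-1 clf-29, 38.9 and 46.9 in clf-29, 47.0 and 54.5 in brm-1, and 36.4 and 39.7 in Col. The other nearest neighbours (MIR413, AT4G08145, AT1G70505, AT1G70518 and MENG) lay in no region of any genotype, at means of 0.71 to 11.2 RPM per kb.

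Among the 10334 other marked genes, those whose log2 levels followed each KNOX gene most closely over the 8 ChIP libraries were found by Pearson's r, as a description. STM was followed most closely by AT5G13250 (r = 0.997), NAC099 (r = 0.995) and MYB54 (r = 0.995), and 1183 genes had an r over 0.95 with it. KNAT2 was followed by AT5G25850, AT1G34049 and AT3G46420 (r = 0.992 each), and 342 genes had an r over 0.95. KNAT1/BP and KNAT6 had few such genes, 2 and 5, and shared the closest of them, AT1G12170 (r = 0.954 and 0.984). Between members, r was 0.935 for KNAT1/BP and KNAT6 and -0.775 for STM and KNAT2. All points share their libraries, and so their background and depth.

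Genes that work with the class I KNOX genes were set beside them by lists, whose counts stand against all tested genes as follows. More than 2-fold higher than Col were 4.92% of genes in brm-1 clf-29, 4.64% in clf-29 and 0.343% in brm-1, and more than 2-fold lower were 40.3%, 33.5% and 38.5% in the same mutants. These shares are over all tested genes, whereas most of the listed regulators and hormone genes are marked genes, so they do not show an excess over marked genes. By adjusted p alone 44.9% of marked genes were higher than Col in brm-1 clf-29, 43.2% in clf-29 and 29.4% in brm-1. Class II KNOX genes and KNATM (5 genes, 2 in a Col region) held 1 gene lower by more than 2-fold in each mutant against Col, KNAT5, at -2.01 in brm-1 clf-29, -2.08 in clf-29 and -1.31 in brm-1, which is no larger a share than among all genes. BELL homeobox genes (13 genes, 5 in a Col region) encode the DNA-binding partners of KNOX proteins, and in clf-29 against Col 1 was higher by more than 2-fold, PNY (1.19), the partner of STM and KNAT1/BP in the stem. In the double mutant against Col 2 BELL genes were higher, PNY (1.30) and the leaf-margin gene SAW1 (1.08), and 4 lower, BLH3 (-1.05), BLH6 (-1.36), BLH7 (-1.86) and BLH10 (-1.11), a share of lower genes that is also not above that of all genes. In brm-1 against Col 1 was higher, the ovule gene BEL1 (1.17), and 2 lower, BLH6 (-1.19) and BLH10 (-1.07). Of the 8 regulators of KNOX genes, 7 in a Col region, CUC2, which acts upstream of STM at organ boundaries, was higher in clf-29 by 1.24 and in brm-1 clf-29 by 1.17, both against Col, as the only regulator past 2-fold in either comparison. Of the 6 hormone genes acting downstream, all in a Col region, 3 were higher in clf-29 against Col, the gibberellin 2-oxidase gene GA2OX4 (1.19) and the cytokinin synthesis genes IPT5 (1.20) and IPT7 (1.16). The double mutant against Col had IPT5 (1.32) and IPT7 (1.19) higher and GA2OX2 (-1.10) lower by more than 2-fold. Against clf-29, the double mutant had BEL1 higher by 1.28 (limma adjusted p = 2.8e-04). Against brm-1, none of the listed genes passed 2-fold in the double mutant. By adjusted p alone 5 regulators were higher and 1 lower, 3 hormone genes higher and 1 lower, and 2 BELL genes higher. In that comparison 10.1% of all tested genes were higher and 8.84% lower by adjusted p, and 29.6% and 21.2% of marked genes. The lists' median changes in clf-29 against Col were 0.42 for class I KNOX genes, -0.43 for class II genes and KNATM, -0.34 for BELL genes, 0.53 for regulators and 0.68 for hormone genes, against -0.74 over all tested genes and 0.26 over marked ones. These changes are on the RPM scale, on which genes without the mark are lower in every mutant than in Col, and other scalings were not run for the listed genes.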

How the data were processed

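H3K27me3 ChIP and input libraries were sequenced from 4 genotypes, with 2 ChIP replicates and 1 input each. Per the labels, the authors mapped reads to TAIR10 with Bowtie 0.12.7 and called regions with SICER 1.1. The deposited values are lists of mapped reads (1 read a line, with chromosome, ends and strand), not counts, fractions or scores, and 10 reads reach past a chromosome end. From these, 1 read per position and strand was kept, moved 75 bp toward the fragment centre and assigned to RefSeq TAIR10.1 genes, whose nuclear chromosome lengths equal those of TAIR10. Genes under 1000 bp (11041) were widened to that length. Genes that reached 10 reads in 2 or more ChIP libraries were fitted on log2(RPM + 1) with limma 3.58.1 (lmFit, eBayes with trend, R 4.3.3) over all 8 ChIP libraries, with 4 residual degrees of freedom and Benjamini-Hochberg adjustment over all genes. The reads per gene counted from the lists were thus tested on this log2 scale rather than with a count model, and limma-voom on the same counts was an alternative. A fold change on this scale slightly understates that of low genes. Keeping 1 read per position removed 38.6 to 53.3% of ChIP reads and caps the highest peaks. Inputs kept 3421391 to 4291138 reads.

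Regions were modelled on SICER, with 200 bp windows at a Poisson p under 0.2, gaps up to 600 bp and an adjusted p under 0.01 over input, found in both replicates. They numbered 6486 in brm-1 clf-29, 6233 in clf-29, 5839 in brm-1 and 5701 in Col. The genes named are the 4 members, their nearest neighbours, the 3 genes most like each member by Pearson's r, and the listed genes that passed the call. The members and lists were chosen with earlier results of these data known, and the ratios of windows and the differences between genes within a library were chosen after seeing the data. The replicates were taken as separate DNA samples of each genotype. The fits were tested on simulated data. Alternatives were other scalings (TMM, median-of-ratios, genes in Col regions, genes outside all regions, ratio to input), limma-voom, pseudocounts of 0.25 and 4 RPM, read shift, duplicates, gene windows, thinning, a replicate block and leaving out each ChIP library.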

Additional observations from a re-analysis of the deposited data

Results flagged for a closer look

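The effect of brm-1 on H3K27me3 differed between the clf-29 and the Col background at 3 of the 4 KNOX genes on the RPM scale (4 of 4 under TMM, median-of-ratios and outside-region scaling, 2 with Col-region scaling), by a test of the difference itself (the interaction term in limma). At KNAT1/BP the difference of the log2 effects was -0.63 (adjusted p = 0.012), with brm-1 clf-29 against clf-29 at -0.41 and brm-1 against Col at 0.22. At KNAT6 it was -0.59 (adjusted p = 0.0080), with brm-1 clf-29 against clf-29 at -0.44 and brm-1 against Col at 0.16. At STM it was -0.41 (adjusted p = 0.026), with brm-1 clf-29 against clf-29 at -0.13 and brm-1 against Col at 0.28. The marked genes had a median difference of -0.22, and the Col libraries, which stand apart in background, enter all 3 values. With scaling on the genes in Col regions the differences were -0.33 for KNAT1/BP, -0.30 for KNAT6 and -0.11 for STM (limma adjusted p = 0.42 for STM), and with scaling on genes outside every region they were -1.64, -1.61 and -1.43. The adjusted p of STM went above 0.05, up to 0.10, when any 1 of 6 of the 8 libraries was left out, that of KNAT1/BP for 4 and that of KNAT6 for 2, all 3 without brm-1 replicate 2 and without brm-1 clf-29 replicate 1.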

How the results depend on the processing

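Counts of KNOX genes called moved with the scaling of libraries and with the 2-fold rule. In brm-1 against Col, median-of-ratios and outside-region scaling called 4 and adjusted p alone 3. In clf-29 against Col, TMM called 1, median-of-ratios 3, outside-region scaling 3, the ratio to input 1 and adjusted p alone 4. In brm-1 clf-29 against Col, TMM and median-of-ratios called 1, outside-region scaling 3 and adjusted p alone 2, and adjusted p alone also called 2 against brm-1 and 2 against clf-29. TMM, median-of-ratios, outside-region and Col-region scaling moved the median change of all genes by 0.33, 0.71, 0.91 and -0.38 in brm-1 clf-29, by 0.26, 0.65, 0.84 and -0.41 in clf-29 and by 0.46, 0.74, 0.91 and -0.23 in brm-1, all against Col.

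Signs turned at these genes, and the cause was not tested beyond those shifts. With Col-region scaling KNAT1/BP was at -0.10 and KNAT6 at -0.040 in clf-29 against Col, KNAT1/BP at -0.038, KNAT2 at -0.017 and KNAT6 at -0.11 in brm-1 against Col, KNAT6 at -0.44 in brm-1 clf-29 against Col, and the interaction of KNAT2 at 0.10. KNAT2 was at 0.38 (median-of-ratios) and 0.61 (outside-region) in clf-29 against Col, and at 0.045 (TMM), 0.51 (median-of-ratios) and 0.76 (outside-region) in brm-1 clf-29 against Col. There KNAT1/BP was at 0.38 (TMM), 0.85 (median-of-ratios), 1.09 (outside-region), 0.053 (ratio to input) and 0.0023 (without Col replicate 1, with -0.024 without replicate 2), and KNAT6 at -0.032 with every read kept and -0.0089 with 500 bp added. KNAT6 was at 0.0013 as a ratio to input in the double mutant against brm-1, and KNAT2 at -0.020 with every read kept and -0.033 to 0.12 with a library left out (-0.033 without clf-29 replicate 2) in brm-1 clf-29 against clf-29. For the window ratios, KNAT6 first-to-last was at -0.021 in the double mutant against brm-1 without brm-1 replicate 2 and up to 0.36 without replicate 1, and KNAT2 first-to-upstream at -0.00037 in brm-1 clf-29 against Col without brm-1 clf-29 replicate 1.

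Leaving out a library gave 0 to 3 calls for the interaction, 2 to 4 (clf-29) and 2 to 3 (brm-1 clf-29) for the first-to-last ratio against Col, and 1 to 2, 1 to 2 and 0 to 3 for the first-to-upstream ratio in clf-29 against Col, brm-1 clf-29 against Col and the double mutant against brm-1. Without a read shift the first-to-last ratio gave 2 calls in clf-29 against Col. STM minus KNAT6 within a library had 0.39 (exact permutation p = 0.0571) with every read kept, and KNAT1/BP minus KNAT6 had -0.20 (exact permutation p = 0.0286) with 500 bp added. With a gap of 200 bp the shared region was 6200 bp for STM in clf-29, and for KNAT1/BP 7400 bp in brm-1 as in Col.

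With the replicate number as a block, 0 KNOX genes were called in every comparison of genotypes and 3 in the interaction, as without it. Deviations of same-numbered libraries over all tested genes correlated at -0.01 to 0.11. With only 2 numbers this cannot show whether same-numbered libraries share a batch. In each mutant the first-to-upstream ratio of every KNOX gene was higher in replicate 1, as at KNAT6 in clf-29 with 3.11 against 2.03. In Col it was lower in replicate 1 for STM, 1.11 against 1.42, and higher for the other genes. With the block KNAT6 passed adjusted p in brm-1 against Col (limma adjusted p = 0.033) and KNAT1/BP in the double mutant against brm-1 (limma adjusted p = 0.015).

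Only 2 ChIP libraries a genotype and 1 input limit the precision, whole seedlings mix cell types, and no spike-in sets the absolute level of the mark.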
